A study of Mus musculus with 6 samples.

Results

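Liver X receptors (LXRs) are nuclear receptors that sense oxidized forms of cholesterol. They bind DNA as heterodimers with the retinoid X receptors (RXRs), at repeated short motifs called LXR response elements. Without ligand the pair recruits corepressors, among them NCoR1 with the histone deacetylase HDAC3, and ligand exchanges these for coactivators, such as the p160 protein NCOA1 (SRC-1) and NCOA6 (ASC-2), so that genes of cholesterol efflux and fatty acid synthesis are transcribed. LXRβ (Nr1h2) is found in most cell types, whereas LXRα (Nr1h3) is known for high levels in liver, fat and macrophages. The genes described here are these receptors, their RXR partners Rxra, Rxrb and Rxrg, and the coregulators Ncor1, Ncoa1, Ncoa6 and Hdac3. They were chosen by name, as 9 of the 55385 genes of the deposited tables, and each of the 9 symbols matched 1 gene.

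RNA from mammary tumors of 3 control mice and 3 mice treated with DMHCA, a steroidal LXR agonist, was sequenced. All mice were female NeuT/ATTAC mice. They carried an activated rat ErbB2[V664E] transgene driven by the MMTV promoter, which acts in mammary epithelium, and an FKBPv-caspase-8 fusion under the FABP4 promoter of fat cells. AP20187, which dimerizes the caspase and ablates part of the mammary fat, was injected at a dose of 0.4 mg/kg. Injections began when mice were 6 weeks old and were given 3 times per week. The DMHCA group also ate a diet with 0.05% DMHCA (about 100 mg/kg), begun when they were 8 weeks old. The label of the controls, AP20187 Vehicle, can be read as AP20187 with a vehicle or as vehicle alone. The study's description of AP20187-treated controls was followed. The labels call the tissue mammary gland fibrosis.

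Total expected counts were 46358654 to 63420620 per control library and 52330938 to 55539411 per DMHCA library. DMHCA libraries 1 and 3 were nearly the same library. Their biological coefficient of variation, the variation beyond counting error, was 0.0326, against 0.374 to 0.573 in the other 5 pairs within a group, and 18.2% of 13380 genes had a chi-square p under 0.05 between them, against 82% to 87% in the other pairs. They were counted as 1 sample, with counts summed and TPM averaged, which left 3 control and 2 DMHCA samples. The p-values measure the spread between these samples. The epithelial markers Epcam, Cdh1, Krt8, Krt18, Krt19, Krt7 and Erbb2 summed to between 3202 and 4135 TPM, RSEM's length-corrected level, in control samples and between 4744 and 4849 TPM in DMHCA samples, and none was at 0. The list's median log2 fold change was -0.09, with 1 of 7 genes higher and 1 lower without overlap, against 13.8% and 12.2% of all genes. The higher one was Krt8, at 624 to 748 TPM in controls against 1032 to 1203 TPM with DMHCA, and the lower one Krt7, at 61.9 to 170 TPM against 33.0 to 45.99 TPM. Defining fat cell markers were low in the DMHCA samples, with Adipoq at 0.765 TPM in libraries 1 and 3 and 1.45 TPM in library 2 against 4.84 to 67.3 TPM in controls. Control library 3 held the most B cell and T cell marker RNA, with summed TPM of 267 and 202, against 1.33 to 32.3 and 3.18 to 20.6 in control libraries 1 and 2.

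Promoters are shown first for both receptors and for 2 genes that LXRs are known to activate, Abca1, the cholesterol efflux pump, and Srebf1, the master regulator of fatty acid synthesis, to set the receptors' own start sites beside an LXR-type element. Sequences are from RefSeq on GRCm38.p6, on the minus strand, with 250 bases before and 50 after the start site. The start site shown for Nr1h3 lies inside the annotated span of the gene, 91184061 to 91202834, and not at its outer end. Capitals mark a loose repeat, the letters GGTNA, 5 bases of any kind and GGTNA again, searched on both strands. It contains the strict repeat, AGGTCA given again after 4 bases, and was chosen because the known elements of Abca1 and Srebf1 match it, so those matches are no finding.
Nr1h2, chr7:44553916-44554215: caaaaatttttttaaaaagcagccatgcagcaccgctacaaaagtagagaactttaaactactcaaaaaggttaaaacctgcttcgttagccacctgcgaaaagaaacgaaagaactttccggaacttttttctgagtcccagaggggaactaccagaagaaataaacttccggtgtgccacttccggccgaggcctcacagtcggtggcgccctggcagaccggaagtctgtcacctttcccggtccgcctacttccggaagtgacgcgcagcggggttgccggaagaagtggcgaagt
Nr1h3, chr2:91195067-91195366: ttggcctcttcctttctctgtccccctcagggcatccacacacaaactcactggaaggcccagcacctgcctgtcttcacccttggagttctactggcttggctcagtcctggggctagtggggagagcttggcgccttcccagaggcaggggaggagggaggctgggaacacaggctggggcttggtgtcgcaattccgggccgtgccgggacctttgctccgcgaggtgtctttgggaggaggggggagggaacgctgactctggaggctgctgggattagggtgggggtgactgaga
Abca1, chr4:53159846-53160145: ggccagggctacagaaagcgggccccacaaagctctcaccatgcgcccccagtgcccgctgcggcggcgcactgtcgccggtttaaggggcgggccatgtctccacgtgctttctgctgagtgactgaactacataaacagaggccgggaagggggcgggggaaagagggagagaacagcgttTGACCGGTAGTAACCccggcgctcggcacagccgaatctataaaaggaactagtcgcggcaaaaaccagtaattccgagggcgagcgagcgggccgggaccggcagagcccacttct
Srebf1, chr11:60210422-60210721: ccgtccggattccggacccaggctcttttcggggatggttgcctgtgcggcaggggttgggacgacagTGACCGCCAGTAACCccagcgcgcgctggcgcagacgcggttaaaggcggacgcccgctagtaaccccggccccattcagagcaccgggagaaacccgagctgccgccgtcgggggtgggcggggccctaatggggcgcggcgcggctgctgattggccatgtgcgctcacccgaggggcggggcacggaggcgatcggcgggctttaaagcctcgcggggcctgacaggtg
The element lies 67 to 53 bases before the start site in Abca1 and 182 to 168 bases before it in Srebf1, in both on the opposite strand. The pattern was found in 236 of the 32851 promoters (0.718%), and in 3 of 23 promoters of 17 LXR target genes listed here, where Fasn was the other one, at 225 to 211 bases before its start site. It was found in 0 of 13 promoters of 8 of the 9 genes described here, and the stricter repeat in 0 of the 13 and in 5 of all promoters (0.0152%). A match here is a description of letters and not evidence of binding.

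The receptor with the higher RNA level in every sample was Nr1h2. Nr1h2 (ENSMUSG00000060601, chromosome 7 of GRCm38, 44549616 to 44553951, minus strand) was listed at 82.8, 36.0 and 63.9 TPM in control libraries 1, 2 and 3, and at 92.8 TPM in DMHCA libraries 1 and 3 (mean) and 86.9 TPM in DMHCA library 2. Both DMHCA samples lay above all 3 controls on the TPM scale, although control library 1 came close. Scaled instead by total counts (CPM, after TMM normalization), the same samples held 94.3, 57.7, 77.7, 107 and 94.6 CPM, so that DMHCA library 2 and control library 1 were almost equal. The means were 76.6 ± 18.3 CPM in controls (SD, n = 3) and 101 ± 8.75 CPM with DMHCA (SD, n = 2). The log2 fold change of Nr1h2 was 0.40 with a standard error of 0.29 and a 95% interval from -0.29 to 1.09 and did not pass edgeR's quasi-likelihood test (adjusted p = 0.712).

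Nr1h3 (ENSMUSG00000002108, chromosome 2, 91184061 to 91202834, minus strand) was the less abundant receptor and the one of the 9 genes whose interval left out 0. It was listed at 5.81, 3.67 and 12.7 TPM in control libraries 1, 2 and 3, at 3.26 TPM in DMHCA libraries 1 and 3 and at 2.93 TPM in DMHCA library 2. Every control sample lay above both DMHCA samples, and control library 3 held the most. The CPM values were 6.72, 5.69 and 15.9 for controls and 3.68 and 3.18 for DMHCA, with means of 9.44 ± 5.62 (SD, n = 3) and 3.43 ± 0.351 (SD, n = 2). This was a log2 fold change of -1.46 with a standard error of 0.59 and a 95% interval from -2.87 to -0.05. In edgeR's quasi-likelihood test Nr1h3 had an unadjusted p of 0.044 and did not pass after adjustment (adjusted p = 0.644). That was the smallest adjusted p of any gene in this fit. Other genes shared it, among them Scd1 and Srebf1, so it does not rank genes. Without control library 3 the log2 fold change was -0.86. Over the settings that kept all libraries the adjusted p of Nr1h3 ranged from 0.0543 to 0.654. The lowest was from DESeq2 treating all 6 libraries as independent, and DESeq2 on the 5 samples gave 0.255. Exons of Gm13783 overlap those of Nr1h3 on the same strand, but the expected counts of Nr1h3 were whole in every library, so no division of its reads between genes shows in them.

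Of 5 marker lists plotted beside Nr1h3, the adipocyte list separated the groups as Nr1h3 did, and the sums of the other 4 overlapped between the groups. The 8 adipocyte markers summed to 137 to 1292 TPM in controls and 84.1 to 84.5 TPM with DMHCA, and 7 of the 8 were lower without overlap. The 9 macrophage markers summed to 756 to 1870 TPM in controls and 716 to 883 TPM with DMHCA, with 3 of 9 lower without overlap (12.2% of all genes were) and a median log2 fold change of -0.12. Lyz2 made up the largest part of that sum in every sample. B cell markers (5 genes) summed to 1.33 to 267 TPM in controls against 2.52 to 2.85 TPM, T cell markers (6 genes) to 3.18 to 202 TPM against 5.18 to 8.82 TPM, and fibroblast markers (7 genes) to 331 to 1300 TPM against 650 to 675 TPM. None of these markers was at 0 in any sample. Control library 2, lower in B cell and T cell markers than both DMHCA samples, held 3.67 TPM of Nr1h3. The part of these cells in the level of Nr1h3 was not tested, and in bulk tumor RNA fewer cells of a type and less RNA per cell cannot be told apart.

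**Figure D1:**
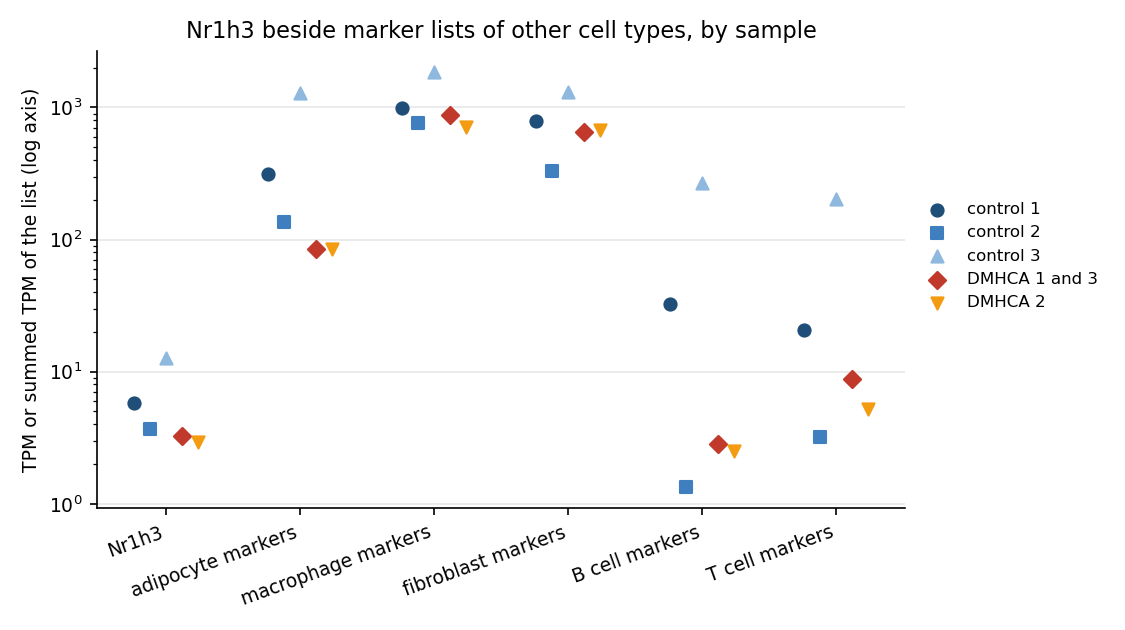
Level of Nr1h3 (TPM) and summed TPM of 5 marker lists (vertical log axis) in the 3 control and 2 DMHCA samples, 1 point per sample. Control library 3 is the highest for Nr1h3 and for each of the 5 lists, and the DMHCA samples are the lowest for Nr1h3 and the adipocyte list.

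Genes whose profile over the 5 samples was nearest to that of Nr1h3, by the root mean square difference of centred log2 CPM, were Ciita, the master regulator of MHC class II genes, at 0.0227, Gm43361 at 0.0938 and Pou2f2, a transcription factor of B cells, at 0.0955. Ciita held 14.6, 12.5 and 34.3 CPM in controls and 7.79 and 6.71 CPM in the DMHCA samples. Gm43361 was near the floor, at 0.282 to 1.47 CPM. There were 46 genes within 0.2 of Nr1h3. For Nr1h2 there were 697 within that distance. The nearest, 4632404H12Rik, B930036N10Rik and Zfp141 (0.0324 to 0.0475), are therefore 3 among many with the same shallow profile. B930036N10Rik was also near the floor, at 0.176 to 0.373 CPM.

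The proportion of the receptors differed between the groups without overlap. The TPM ratio of Nr1h2 to Nr1h3 came to 14.3, 9.80 and 5.02 for control libraries 1, 2 and 3, and to 28.5 and 29.7 for the DMHCA samples. Nr1h2 thus made up 83.4% to 93.4% of the summed LXR TPM in controls and 96.6% to 96.7% with DMHCA. On the log2 scale the ratio was 3.15 ± 0.76 (SD, n = 3) in controls and 4.86 ± 0.04 (SD, n = 2) with DMHCA, a difference of 1.71. A 2-sided exact permutation test gave p = 0.2, the smallest that 3 against 2 samples allow, so this comparison could not pass a threshold of 0.05. Leaving out single libraries gave differences of 1.3 to 2.05, with the lowest without control library 3.

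**Figure D2:**
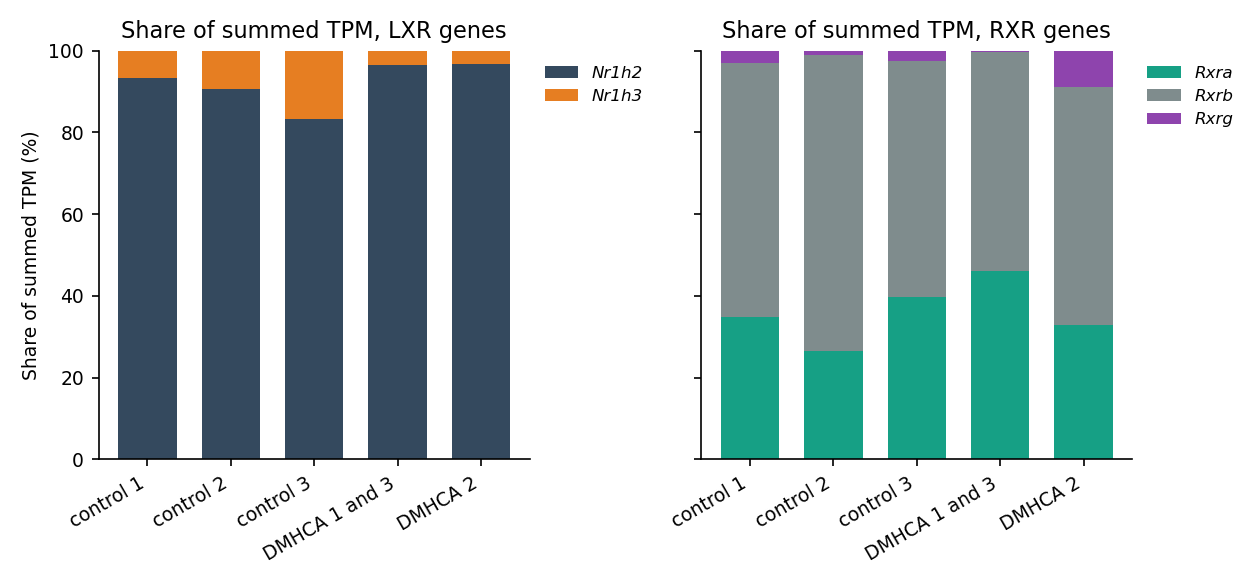
Share (%) of each gene in the summed TPM of the LXR genes (left) and of the RXR genes (right), 1 bar per sample. Nr1h2 makes up 83.4% to 96.7% of LXR TPM, and Rxrb 53.6% to 72.5% of RXR TPM.

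Among the RXR genes, Rxrb was the most abundant per length in every sample and Rxra came next. Rxrb (ENSMUSG00000039656, chromosome 17, 34031812 to 34038399, plus strand), which like Rxra is expressed in most tissues, was listed at 45.3, 33.8 and 28.7 TPM in control libraries 1, 2 and 3 and at 36.0 and 50.6 TPM in DMHCA libraries 1 and 3 and library 2. The groups overlapped. Its log2 fold change was 0.04 with a standard error of 0.29 and a 95% interval from -0.64 to 0.72. The sign of this estimate turned under several settings, for example to -0.14 without DMHCA library 2.

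Rxra (ENSMUSG00000015846, chromosome 2, 27676440 to 27762957, plus strand) was listed at 25.4, 12.4 and 19.8 TPM in control libraries 1, 2 and 3 and at 31.0 and 28.6 TPM in the DMHCA samples. Both DMHCA samples lay above all controls, also in CPM, where the controls held 85.5, 56.0 and 71.6 and the DMHCA samples 107 and 90.5. The estimated log2 fold change was 0.48 with a standard error of 0.28 and a 95% interval from -0.18 to 1.14 (edgeR quasi-likelihood adjusted p = 0.669). The ratio of Rxra to Rxrb was 0.561, 0.366 and 0.690 in controls and 0.861 and 0.565 with DMHCA, which overlapped (2-sided exact permutation p = 0.4).

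Rxrg (ENSMUSG00000015843, chromosome 1, 167598384 to 167639623, plus strand), which is known from muscle and brain, was the least abundant and by far the most variable of the 9 genes. It was listed at 2.10, 0.44 and 1.3 TPM in control libraries 1, 2 and 3, at 0.21 TPM in DMHCA libraries 1 and 3 and at 7.79 TPM in DMHCA library 2. The DMHCA samples were thus the lowest and the highest of the 5, with all controls between them. Its range over samples, 5.0 on the log2 CPM scale, was wider than that of 96.8% of the genes tested. The log2 fold change of 1.5 with a standard error of 1.27 (95% interval -1.53 to 4.54) was -2.65 without DMHCA library 2, and it was also below 0, at -1.36, in edgeR on 6 libraries with the replicate number as a block. Skeletal muscle markers (8 genes) were lowest in DMHCA library 2, at a summed 264 TPM. They summed to 621 to 1092 TPM in controls and 948 TPM in DMHCA libraries 1 and 3. The part of muscle in the level of Rxrg was not tested. No gene lay within 0.2 of the profile of Rxrg. The nearest were Edar, a receptor of skin appendage development, at 0.275, the pseudogene Cbx3-ps7 at 0.394 and S100a8, a calcium-binding protein of myeloid cells, at 0.596. Edar held 3.25 CPM in DMHCA library 2 and at most 1.0 CPM in any other sample. Cbx3-ps7 was near the floor, with at most 0.677 CPM, and was at 0 in control library 2 and in DMHCA libraries 1 and 3.

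**Figure D3:**
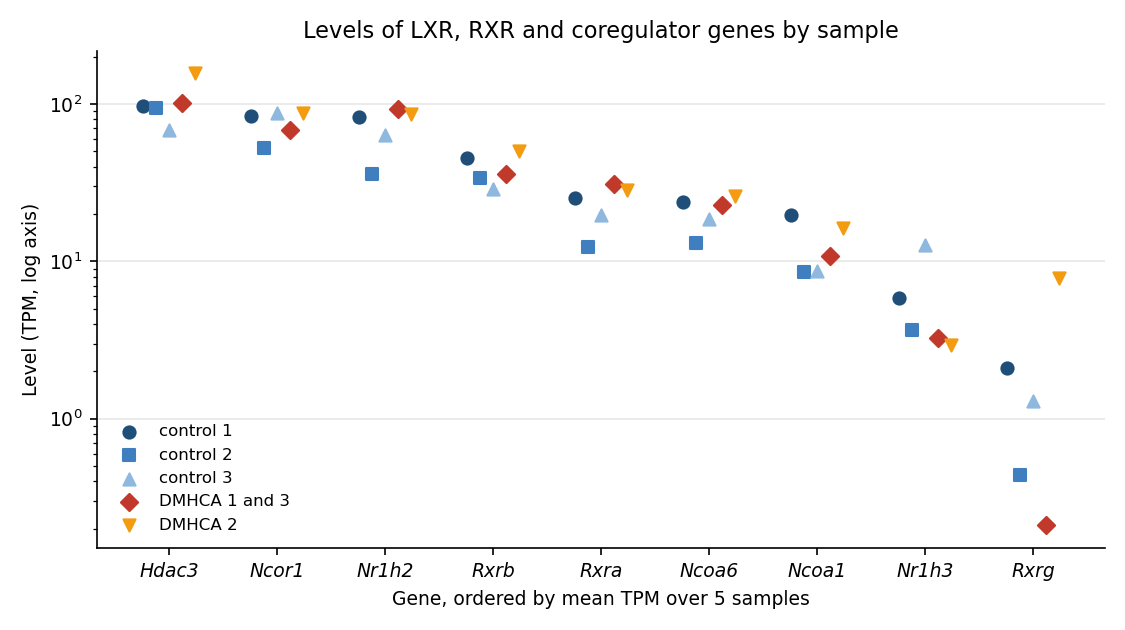
Levels of the 9 genes in TPM (vertical log axis), ordered by their mean over the 5 samples, 1 point per sample. Hdac3, Ncor1 and Nr1h2 are at the top, between 36.0 and 157 TPM, and Rxrg spreads from 0.21 to 7.79 TPM.

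None of the 4 coregulator genes passed the test between the groups. Hdac3 (ENSMUSG00000024454, chromosome 18, 37935844 to 37955016, minus strand), the deacetylase of the NCoR complexes, had the highest mean of the 9 genes. It was listed at 96.6, 94.0 and 68.9 TPM in control libraries 1, 2 and 3 and at 101 and 157 TPM in DMHCA libraries 1 and 3 and library 2. On the TPM scale the groups did not overlap, whereas in CPM control library 2, with 160, lay above the 132 of DMHCA libraries 1 and 3. Its log2 fold change was 0.35 with a standard error of 0.33 and a 95% interval from -0.44 to 1.14, and it was 0.11 without DMHCA library 2 and 0.17 without control library 3.

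Ncor1 (ENSMUSG00000018501, chromosome 11, 62316426 to 62458541, minus strand) encodes the corepressor that holds HDAC3. It was listed at 83.9, 52.3 and 87.3 TPM in controls and at 68.5 and 87.1 TPM with DMHCA. The groups overlapped, and its log2 CPM range of 0.51 over the samples was wider than that of only 8.89% of the genes tested. The log2 fold change of 0.21 had a standard error of 0.27 and a 95% interval from -0.44 to 0.86, so a change of more than 2-fold in either direction lay outside the interval. It was the only 1 of the 9 genes whose expected counts were not whole, as happens where RSEM divides reads that map to more than 1 gene. Its exons overlap Pigl and Ttc19 on the opposite strand.

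Ncoa6 (ENSMUSG00000038369, chromosome 2, 155390656 to 155473894, minus strand), the coactivator around which the histone methylating ASCOM complex is built, was listed at 23.8, 13.1 and 18.5 TPM in controls and at 22.7 and 26.1 TPM with DMHCA. In CPM the controls held 62.1, 46.7 and 45.3 and the DMHCA samples 63 and 71.5. The groups were apart in CPM, narrowly so between control library 1 and DMHCA libraries 1 and 3, and overlapped in TPM. The log2 fold change was 0.39 with a standard error of 0.26 and a 95% interval from -0.23 to 1.0.

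Ncoa1 (ENSMUSG00000020647, chromosome 12, 4247362 to 4477182, minus strand), the p160 coactivator that recruits histone acetyltransferases, was listed at 19.6, 8.60 and 8.64 TPM in controls and at 10.8 and 16.3 TPM with DMHCA. Control library 1 was the highest and the DMHCA samples fell among the controls. The log2 fold change was 0.04 with a standard error of 0.36 and a 95% interval from -0.83 to 0.91, and its sign turned too, to -0.21 without DMHCA library 2. Exons of 4921501I09Rik overlap it on the opposite strand.

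In all, 0 of the 9 genes had an edgeR adjusted p under 0.05, as did 0 of the 19427 genes tested (0%), and 1 of the 9, Nr1h3, had an unadjusted p under 0.05, where 7.61% of all genes did. In CPM, 3 of the 9 (Nr1h2, Rxra and Ncoa6) lay higher with DMHCA without overlap, against 13.8% of all genes, and 1 of the 9 (Nr1h3) lay lower, against 12.2%. The log2 fold change was above 0 for 8 of the 9 genes, of which Rxrb, Ncoa1 and Rxrg turned below 0 under other settings, while the median over all genes was -0.03. DESeq2 treating all 6 libraries as independent also called 0 of the 9, while it called 839 genes (3.9% of those with an adjusted p), and DESeq2 on the 5 samples called 0 of the 9 and 246 genes (1.26%). With 3 and 2 samples, the intervals of all genes but Ncor1, Rxrb and Ncoa1 reached a change of 2-fold or more in at least 1 direction.

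**Figure D4:**
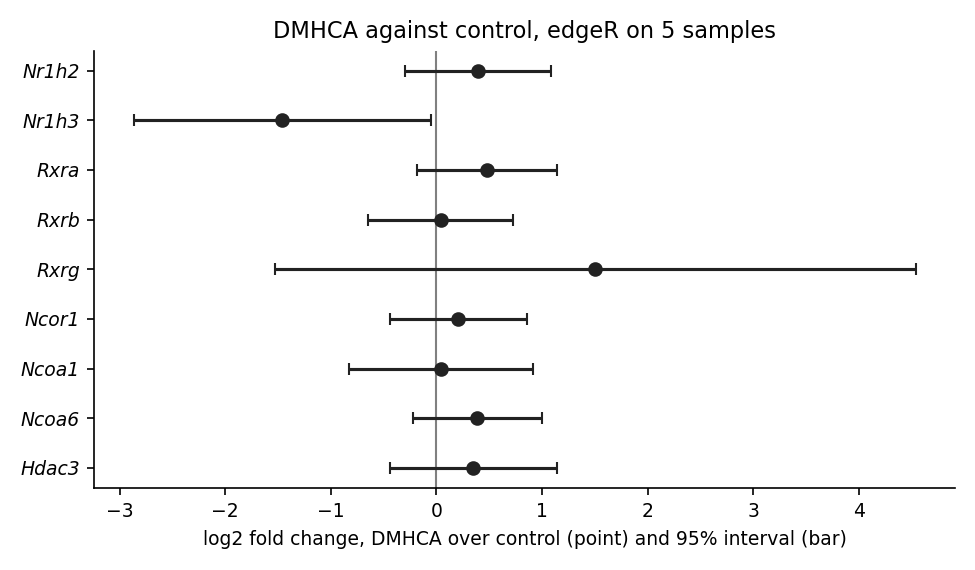
Log2 fold change of DMHCA over control (points) with 95% intervals (bars) for the 9 genes, from edgeR's quasi-likelihood fit on 3 control and 2 DMHCA samples. The bar of Nr1h3 ends at -0.05, those of the other genes cross 0, and that of Rxrg runs from -1.53 to 4.54.

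In order of mean TPM the genes ran Hdac3, Ncor1, Nr1h2, Rxrb, Rxra, Ncoa6, Ncoa1, Nr1h3 and Rxrg, with means over the 5 samples of 103, 75.8, 72.5, 38.9, 23.4, 20.9, 12.8, 5.68 and 2.37 TPM. Nr1h2 lay above Rxrb, Rxrb above Rxra and Ncoa6 above Ncoa1 in each of the 5 samples. The other 5 neighbours in this order changed places in 1 sample each. Among these, the mean log2 TPM ratio was smaller than its SD for Hdac3 to Ncor1, Ncor1 to Nr1h2, Rxra to Ncoa6 and Nr1h3 to Rxrg, and was 1.33 with an SD of 1.14 for Ncoa1 to Nr1h3. The mean of Hdac3 lay above that of 93.1% of the genes tested, that of Nr1h2 above 90.2% and that of Nr1h3 above 45.0%.

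RSEM also gives the mean length of a gene's transcripts, weighted by how much of each was estimated, which moves when the use of transcript forms moves. For Ncor1, which has 25 annotated transcripts of 452 to 9037 bases, this length was 3521, 3238 and 2689 bases in control libraries 1, 2 and 3 and 3823 and 3930 bases in the DMHCA samples. For Ncoa6 (8 transcripts of 413 to 7101 bases) it was 3832, 3901 and 3367 bases in controls and 3957 and 4265 bases with DMHCA. In both genes the DMHCA samples had the longer mean without overlap, which held for 11.1% of the 14255 genes with several transcripts, and control library 3 had the shortest. Shorter means without overlap were found for 14.7% of those genes and for 0 of the 9. The length of Rxra (4889 to 4905 bases) hardly varied. It overlapped between the groups, as did that of Nr1h2 (1750 to 1850 bases) and those of the remaining genes. These lengths are estimates with no error given in the files and were not tested.

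The pathway around the 9 genes was followed in lists chosen from textbook knowledge, with earlier results of these data known. Of 23 LXR target genes, 21 were tested, and 6 had an unadjusted p under 0.05, all higher with DMHCA (3.53% of all genes were higher at that level and 4.08% lower). The median log2 fold change of the 21 was 0.59, with 13 above 0, and 10 were higher and 2 lower without overlap, against 13.8% and 12.2% of all genes. By edgeR's quasi-likelihood test with adjustment over all genes, 0 of the 21 passed. In that test Scd1, Scd2, Srebf1 and Abca1 had an adjusted p of 0.644, the smallest of any gene. DESeq2 treating all 6 libraries as independent called Abca1, Apoc1, Scd1, Scd2 and Srebf1, and on the 5 samples Scd1, Scd2 and Srebf1. Apoc1, an apolipoprotein gene, overlapped between the groups, with 23.4, 4.34 and 61.3 CPM in controls and 292 CPM in DMHCA libraries 1 and 3 against 32.0 CPM in library 2.

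Scd1, the fatty acid desaturase, held 683, 501 and 1383 CPM in controls and 6210 and 6275 CPM in the DMHCA samples, a log2 fold change of 2.87 with a standard error of 0.53. Its relative Scd2 held 584, 398 and 225 CPM in controls and 1760 and 1819 CPM with DMHCA (log2 fold change 2.15, standard error 0.45). Srebf1 held 549, 318 and 470 CPM against 2131 and 1450 CPM, and Abca1 95.5, 62.6 and 115 CPM against 279 and 189 CPM, with log2 fold changes of 2.01 and 1.36. In each of these 4 genes both DMHCA samples lay above every control. Tmem135, a gene linked to peroxisomes, had a log2 fold change of 0.85. Mylip, Apoe, Lpl, Apoc1 and Fasn are named after their values were seen, to complete the counts above. Mylip, the ligase that degrades the LDL receptor, had a log2 fold change of 0.86. Apoe, known as an LXR target in macrophages, held 1608, 1580 and 2173 CPM in controls and 1447 and 1021 CPM with DMHCA, and Lpl, an LXR target that is also a fat cell gene, held 67.7, 57.7 and 398 against 56.3 and 47.0 CPM. Apoe and Lpl were the 2 targets lower without overlap. Control library 3 held the most of both and had the highest sums of adipocyte, macrophage, fibroblast, B cell and T cell markers, whose part in these levels was not tested.

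**Figure D5:**
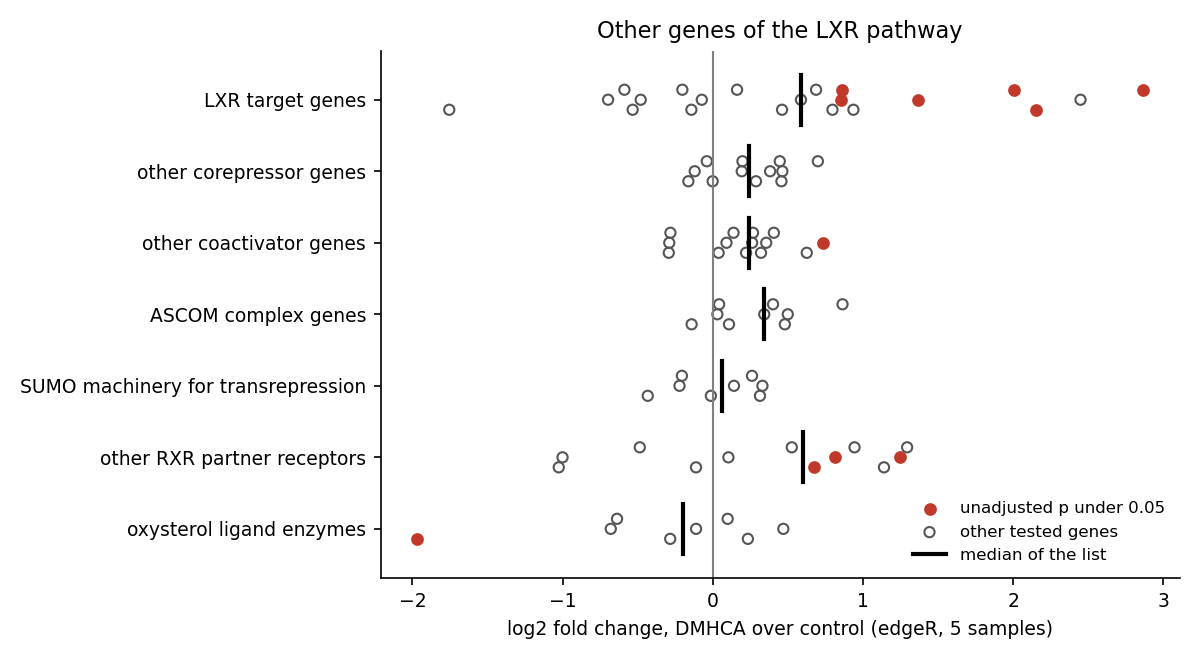
Log2 fold change of DMHCA over control (horizontal axis) for each tested gene of 7 pathway lists, from edgeR on 5 samples, with filled points for an unadjusted p under 0.05 and a bar at the list's median. The target genes reach 2.87 and hold 6 of the filled points, while the corepressor, ASCOM and SUMO lists hold none.

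Of 13 further corepressor genes, 12 were tested, 0 had an unadjusted p under 0.05 and the median log2 fold change was 0.24. The gene with the smallest p was Kdm1a, a histone demethylase, with a log2 fold change of 0.46 and an edgeR quasi-likelihood adjusted p of 0.683. Rcor1 (0.45), Tbl1x (0.46) and Sin3b (0.29) were also among those with the smallest p. The 12 had 0 without overlap in either direction, against 13.8% of all genes higher and 12.2% lower.

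Among 14 further coactivator genes the median log2 fold change was 0.24, and 3 lay higher without overlap (13.8% of all genes did). Prmt1, an arginine methyltransferase, held 109, 86.3 and 85.6 CPM in controls and 163 and 149 CPM with DMHCA, with a log2 fold change of 0.74, a standard error of 0.25 and an unadjusted p of 0.0243 (edgeR quasi-likelihood adjusted p = 0.644). It was the only 1 of the 14 under 0.05, where 7.61% of all genes were. Ep300, the acetyltransferase p300, held 103, 58.2 and 63.6 CPM against 114 and 118 CPM (log2 fold change 0.63). Med1, the Mediator subunit that nuclear receptors contact, held 65.3, 60.7 and 62.4 CPM against 75.4 and 75.2 CPM, a narrow gap with a log2 fold change of 0.26. Med14 (0.36) and the p160 gene Ncoa3 (0.41) overlapped between the groups.

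The 9 other genes of the ASCOM complex, which carries NCOA6 and methylates histone H3, had a median log2 fold change of 0.34, with 8 above 0, 4 higher without overlap (13.8% of all genes) and 0 under an unadjusted p of 0.05. The 4 were Paxip1 (log2 fold change 0.48), Pagr1a (0.86), Wdr5 (0.40) and Ash2l (0.34), and Kmt2d, a methyltransferase, stood at 0.50 with overlap. The median of this list was 0.19 without control library 2 and 0.21 without control library 3. For 8 genes of SUMO conjugation, by which LXRs are known to be held on inflammatory promoters, the median was 0.06 and 0 had an unadjusted p under 0.05. The sign of this median turned, to -0.15 without DMHCA library 2 and -0.06 in edgeR on 6 libraries. Pias1 (-0.43), Sumo3 (0.33) and Pias2 (0.26) were among those with the smallest p, and 2 of the 8, Sumo3 and Pias2, lay higher without overlap (13.8% of all genes did).

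Of 15 other receptor genes listed as RXR partners, 12 were tested and 3 had an unadjusted p under 0.05, all higher (3.53% of all genes were). Without overlap, 3 lay higher and 1 lower, against 13.8% and 12.2% of all genes. Nr4a1, an immediate early gene, held 134, 107 and 54.6 CPM in controls and 209 and 259 CPM with DMHCA (log2 fold change 1.25, standard error 0.41). Ppard, a fatty acid receptor, held 33.4, 32.0 and 22.8 CPM against 45.5 and 48.4 CPM (0.68), and Thrb, a thyroid hormone receptor, 12.1, 8.21 and 10.6 CPM against 17.5 and 18.7 CPM (0.81). The 1 lower without overlap, named after its values were seen, was Rara, a retinoic acid receptor gene, with 23.3, 24.6 and 29.4 CPM in controls and 22.2 and 14.6 CPM with DMHCA. Nr4a2 (1.14) and the vitamin D receptor gene Vdr (-1.0) overlapped between groups. Nr4a1, Ppard and Thrb each had an edgeR quasi-likelihood adjusted p of 0.644, the smallest of any gene in that fit. The list's median log2 fold change was 0.60, with 8 of 12 above 0, but it ranged from -0.00 without DMHCA library 2 to 0.69 without control library 2, and was 0.33 without control library 3. It also depended on the fit, with 0.12 and 0.09 in DESeq2 on 5 samples and 6 libraries, 0.13 with no filter on low counts and 0.28 with a mean of at least 100 counts.

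Among 8 genes that make or remove oxysterols, the natural LXR ligands, Cyp7b1, the hydroxylase that inactivates them, held 4.79, 4.48 and 1.97 CPM in controls and 1.03 and 0.884 CPM with DMHCA. Its log2 fold change was -1.97 with a standard error of 0.61 and an unadjusted p of 0.0157 (edgeR quasi-likelihood adjusted p = 0.644), and DESeq2 treating all 6 libraries as independent called it, while DESeq2 on the 5 samples did not (adjusted p = 0.0516). The other 7 overlapped between the groups. Hsd3b7 had a log2 fold change of 0.23 and Cyp27a1, which makes the ligand 27-hydroxycholesterol, of -0.64, while Cyp11a1 was near the detection limit at under 1 CPM. The median of the list was -0.20, and it ranged from -0.44 without control library 2 to -0.07 without control library 3, with 0.02 in limma on log2(TPM + 0.1).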

How the data were processed

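RNA from 6 mammary tumors was sequenced and processed by the study's authors with FastQC 0.11.9, cutadapt 2.9, Bowtie2 2.4.1 and RSEM 1.3.1 against the Ensembl mm10 (GRCm38) annotation. The strand setting is not given in the sources used here. The deposited tables hold expected counts, TPM, FPKM and transcript lengths per gene and library, as the authors' RSEM run gave them. Members and gene lists were chosen with earlier results of these data known.

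Expected counts were rounded, DMHCA libraries 1 and 3 were made 1 sample (counts summed, TPM averaged), and genes were kept by edgeR's filterByExpr (minimum count 10, minimum total 15). The quasi-likelihood test of edgeR 4.0.16 in R 4.3.3, with TMM normalization and Benjamini-Hochberg adjustment over all 19427 genes, compared 2 DMHCA with 3 control samples. CPM used no prior count, and a prior count of 2 entered log2 CPM. DESeq2 1.42.0, limma 3.58.1 on log2(TPM + 1) and log2(TPM + 0.1) for genes with a mean TPM of at least 0.5, other filters, the 6 separate libraries and each library left out were alternatives. FPKM served only for the receptor ratio. The 4 ratios of genes were tested with exact permutation tests in scipy 1.17.1. The fitting was tested on simulated data. Coordinates are from GENCODE M21 (GRCm38).

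Named were the 9 genes, the 5 genes of each pathway list with the smallest p, and the 3 genes nearest in profile to Nr1h2, Nr1h3 and the most variable member. Some genes that this rule names are not reported here. Endothelial markers (5 genes) summed to 44.2 to 59.4 TPM in controls and 59.9 to 68.9 TPM with DMHCA.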

Additional observations from a re-analysis of the deposited data

How the results depend on the processing

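No setting called any of the 9 genes. Over all genes, edgeR called 0 in each setting that kept all libraries, except 16 with no filter on low counts. DESeq2 called 246 on 5 samples and 839 on 6 libraries. Of the pathway list genes, edgeR with no filter called 1, DESeq2 on 5 samples 3 and DESeq2 on 6 libraries 6. Leaving out any single library other than DMHCA library 2, edgeR called 0 over all genes and 0 of the pathway list genes. Log2 fold changes of the 9 genes kept their direction in 81 of 90 cases over the settings that keep all libraries. Rxrb turned to -0.0261 with DESeq2 on 6 libraries, -0.0455 with edgeR on 6 libraries and -0.0145 with a mean of at least 100 counts, and Ncoa1 to -0.0431, -0.0635 and -0.0144. As libraries were left out, Rxrb ranged from -0.14 to 0.13, Ncoa1 from -0.21 to 0.36, Rxrg from -2.65 to 2.10, Hdac3 from 0.11 to 0.56, Nr1h2 from 0.23 (without control library 2) to 0.56, Ncor1 from 0.12 (without DMHCA library 2) to 0.31 and Nr1h3 from -1.72 to -0.86. The log2 difference in receptor ratio lay between 1.3 and 2.05 without single libraries and between 1.70 and 1.71 otherwise. The median of all genes shifted to 0.16 in log2(TPM + 1), and the medians of the corepressor, coactivator and ASCOM lists to 0.48, 0.41 and 0.51. The LXR target median was 0.89 on that scale and 0.91 in log2(TPM + 0.1), and on these scales in turn Nr1h3 was -0.89 and -1.05, Nr1h2 0.63 and 0.64, Hdac3 0.55 and 0.56, Ncor1 0.09 and 0.09, Rxrb 0.27 and 0.27, Ncoa1 0.21 and 0.23 and Rxrg 0.59 and 0.40. The causes were not tested.

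With the replicate number as a block on 6 libraries, edgeR called 0 genes, as without it, and Rxrb was -0.0395, Ncoa1 -0.0237 and Rxrg -1.36. Deviations of log2 CPM from the group mean were correlated between control and DMHCA libraries. Same-numbered libraries gave -0.05 to 0.33 (3 pairs) and others -0.36 to 0.32 (6 pairs). DMHCA libraries 1 and 3 are nearly the same, so these pairs are not independent. The numbers were not taken as pairing. Depth was 46358654 counts or more per library, and its effect was not tested. Without DMHCA library 2 the lone DMHCA sample was assumed to vary like the controls.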

Other observations

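The 20 tested genes around each of the 9 genes on the chromosome gave a local comparison, as differences in log2 CPM from the control mean. Nr1h3 stood at -1.20 in DMHCA libraries 1 and 3 and -1.41 in library 2, while the median of its neighbours stood at 0.28 and 0.13. Rxrg stood at -2.32 and 2.68, with neighbour medians of -0.08 and -0.12. Hdac3 stood at 0.10 and 0.61, and in DMHCA library 2 the median of its neighbours was 0.74, with 15 of 20 above the control mean, against -0.19 and 5 of 20 in libraries 1 and 3. Nr1h2 stood at 0.51 and 0.33, with neighbour medians of 0.70 and 0.13. Ncoa6 stood at 0.31 and 0.49, with neighbour medians of 0.43 and 0.19, and Rxra at 0.62 and 0.37, with 0.39 and -0.29. Rxrb (-0.16 and 0.25), Ncor1 (0.08 and 0.34) and Ncoa1 (-0.19 and 0.35) had neighbour medians of -0.05 and -0.25, -0.35 and -0.23, and -0.27 and 0.10. None of these differences was tested.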
